A study of Mus musculus with 3 samples.

Results

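The regions described here are 1036 distal intergenic peaks of Ser5-phosphorylated Pol_II that appeared after LPS, out of 49371 Ser5 peaks called in LPS-treated macrophages on chromosomes 1 to 19 and X. A region was taken where an LPS peak overlapped no untreated peak, lay outside every protein-coding gene and the 10 kb past its 3′ end, and was more than 2 kb from any coding start (mm9, GENCODE M1). It also had to hold at least 10 LPS tags and a TPM after LPS at least 2 times that before (TPM, tags scaled to 1000000 per library), with 0 untreated tags set to 0.5. Of the 49371 LPS peaks, 3508 were distal by these distances, 2013 of them overlapped an untreated peak and 1495 did not. Among those 1495 peaks, 328 had under 10 tags, 131 of the others had a ratio under 2, and 1036 remained. The measured part of the rule was met by 27.4% of LPS peaks in any place, and by 29.5% of the distal ones. The regions were chosen by these tag counts and by the ratio of LPS to untreated tags, so the values of both Ser5 libraries in them are a description and carry no test.

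Macrophages were grown from the bone marrow of female Fvb mice to the 7th day of differentiation, and chromatin was immunoprecipitated with an antibody to the Ser5-phosphorylated CTD repeat of Pol_II (Abcam ab5131). One group, here "untreated", received no stimulus, another received 10 ng/ml LPS (lipopolysaccharide of the bacterial outer membrane) for 2 h, and input DNA, sequenced with no antibody, came from untreated cells. The labels name LPS alone, but a display of the Ser5 data in the study is headed LPS with gamma interferon, so effects of LPS and of any added interferon cannot be told apart here. Each group was 1 library, so no value had a replicate check and no test could be made. All intervals are at 95%, and none covers variation between replicates. Those of tag ratios are for counting error alone. Those of shares and medians treat genes or regions as independent. Libraries held 7616771 (untreated), 6249819 (LPS) and 7533308 (input) tags on the chromosomes used. Over the gene bodies, macrophage genes carried Ser5 above input in untreated cells (19.2 TPM per kb against 0.994 at Csf1r, and 105 against 0.905 at Lyz2), while Cd3e of T cells and Ly6g of neutrophils were below input (0.0726 against 0.563 at Cd3e). The B cell gene Cd79a was above it, with 34 untreated, 27 LPS and 19 input tags (0.927 TPM per kb untreated, 0.897 after LPS and 0.524 in the input). No library of LPS-treated input was used, and no RNA was measured in these files.

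Ser5 of the Pol_II C-terminal domain is phosphorylated by TFIIH as transcription starts, so Ser5 peaks away from genes mark places where polymerase has begun to transcribe or passes through. In macrophages, LPS acts through TLR4 to activate NF-kB, AP-1 and, through interferon, the ISGF3 and STAT factors, which bind promoters and distal enhancers. PU.1, AP-1 and C/EBP factors occupy many macrophage enhancers before any stimulus.

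The sequences that follow are windows of 300 bases, centred on the highest pile-up of LPS tags, from the regions with the most LPS tags whose windows held a given motif. They are on the plus strand of mm9 and are read 5′ to 3′, and capitals mark every match, on either strand, to the motifs kappaB, ISRE, PU.1 (GAGGAAGT), AP-1 (TGANTCA), C/EBP (TTGCNNAA), STAT (TTCNNNGAA) and E-box (CACGTG). The Ccl5 window was chosen for kappaB, the Il27 window for ISRE, the Socs3 window for PU.1 and the Ube2l6 window for AP-1. The Irg1 window was chosen for C/EBP, and the Mir155 window for STAT and E-box.
Ccl5 upstream region, chr11:83363845-83364144: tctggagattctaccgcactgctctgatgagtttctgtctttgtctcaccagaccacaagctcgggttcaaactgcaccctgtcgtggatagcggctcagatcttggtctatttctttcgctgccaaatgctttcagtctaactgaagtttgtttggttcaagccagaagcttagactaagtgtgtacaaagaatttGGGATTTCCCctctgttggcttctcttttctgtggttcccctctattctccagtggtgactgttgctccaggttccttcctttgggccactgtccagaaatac
Il27 upstream region, chr7:133750648-133750947: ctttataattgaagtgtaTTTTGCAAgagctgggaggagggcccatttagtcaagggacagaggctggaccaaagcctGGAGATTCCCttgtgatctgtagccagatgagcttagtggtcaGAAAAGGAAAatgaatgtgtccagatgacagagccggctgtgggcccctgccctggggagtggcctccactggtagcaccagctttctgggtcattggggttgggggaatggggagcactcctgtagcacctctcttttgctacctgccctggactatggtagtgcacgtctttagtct
Socs3 downstream region, chr11:117811036-117811335: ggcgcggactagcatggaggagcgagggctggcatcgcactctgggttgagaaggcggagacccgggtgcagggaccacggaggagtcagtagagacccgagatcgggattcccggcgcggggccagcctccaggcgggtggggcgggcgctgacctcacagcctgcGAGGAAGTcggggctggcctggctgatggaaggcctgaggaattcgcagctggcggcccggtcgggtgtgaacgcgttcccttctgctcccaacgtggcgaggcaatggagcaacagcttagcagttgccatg
Ube2l6 upstream region, chr2:84634560-84634859: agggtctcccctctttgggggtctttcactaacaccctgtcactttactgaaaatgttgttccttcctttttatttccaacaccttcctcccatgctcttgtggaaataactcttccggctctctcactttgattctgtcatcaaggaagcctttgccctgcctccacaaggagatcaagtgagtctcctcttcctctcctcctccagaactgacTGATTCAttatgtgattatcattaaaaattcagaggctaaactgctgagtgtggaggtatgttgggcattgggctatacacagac
Irg1 upstream region, chr14:103415080-103415379: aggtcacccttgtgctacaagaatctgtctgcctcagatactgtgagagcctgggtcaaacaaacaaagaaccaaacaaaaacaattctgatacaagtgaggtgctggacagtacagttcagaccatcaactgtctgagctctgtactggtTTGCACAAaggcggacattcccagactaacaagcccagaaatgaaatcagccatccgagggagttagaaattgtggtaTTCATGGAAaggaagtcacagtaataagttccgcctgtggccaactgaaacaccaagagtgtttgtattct
Mir155 upstream region, chr16:84703466-84703765: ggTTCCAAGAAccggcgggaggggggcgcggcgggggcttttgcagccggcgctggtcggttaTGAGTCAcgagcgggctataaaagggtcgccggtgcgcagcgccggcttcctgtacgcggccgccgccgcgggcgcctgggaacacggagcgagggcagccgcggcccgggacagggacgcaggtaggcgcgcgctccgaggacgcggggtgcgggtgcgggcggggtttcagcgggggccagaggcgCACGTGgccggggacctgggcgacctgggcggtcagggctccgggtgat

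The Ccl5 window held 1 kappaB match at bases 198 to 207 and no match to the other motifs. In the Il27 window a kappaB match at bases 79 to 88 and an ISRE match at bases 122 to 131 stood beside a C/EBP match at bases 19 to 26. The Irg1 window held a C/EBP and a STAT match, and the Mir155 window an AP-1 match at bases 64 to 70 with a STAT and an E-box match. A match gives letters in the genome and does not show that a factor was bound. The regions to which these windows belong had 214 (Ccl5), 132 (Il27), 109 (Socs3), 954 (Ube2l6), 213 (Irg1) and 805 (Mir155) LPS tags, against 14, 38, 23, 14, 24 and 16 untreated tags.

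The gained regions were small and mostly weak. Their median length was 390 bp (lowest 122 bp, highest 3476 bp). Untreated tags per region ran from 0 to 42 with a median of 5, LPS tags from 10 to 954 with a median of 18, and input tags from 0 to 28 with a median of 3. The LPS distribution had a long upper tail: 583 regions held 10 to 19 LPS tags, 356 held 20 to 49, 73 held 50 to 99 and 24 held 100 or more. In 91 regions no untreated tag was found, which at a limit of 3 tags allows up to 0.394 TPM.

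Summed over all regions, the untreated library gave 834 TPM, the LPS library 4554 and the input 552. The LPS sum was 5.46 times the untreated sum (5.32 to 5.61) and 8.25 times the input sum (7.99 to 8.53). Single ratios of LPS to untreated had a median of 5.18, with 227 regions between 2 and 3, 283 between 3 and 5, 246 between 5 and 10, 141 between 10 and 20, and 139 at 20 or above. Of these 139 regions, 91 had 0 untreated tags, which set to 0.5 cannot give less than 24.4, and 41 had 1 or 2. With at least 3 untreated tags assumed in every region, 10 regions reached 20 and the median ratio was 4.47. Counting error was wide at these depths. The interval of the ratio lay wholly above 1 in 914 regions and wholly above 2 in 428.

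At the thresholds the regions were close to their neighbours outside. Peaks are named here by the nearest coding start, at the distance given. A region 256888 bp from Klf6 (chr13:5603315-5603847) and one 6645 bp from Gatad2a (chr8:72526923-72527298) were just inside the ratio. Each had 14 untreated and 23 LPS tags. Just outside was a peak 79496 bp from Kcnrg with 19 untreated and 31 LPS tags (ratio 1.99). Another, 53676 bp from Atp6v1g3, had 8 and 13 tags (ratio 1.98). At the tag minimum, regions 3068 bp from Olfr433 and 135922 bp from Egfl6 held 10 LPS tags and 0 untreated tags. Peaks 40363 bp from Gja1 and 219832 bp from Hs3st3a1 were left out with 9 LPS and 0 untreated tags.

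**Figure D1:**
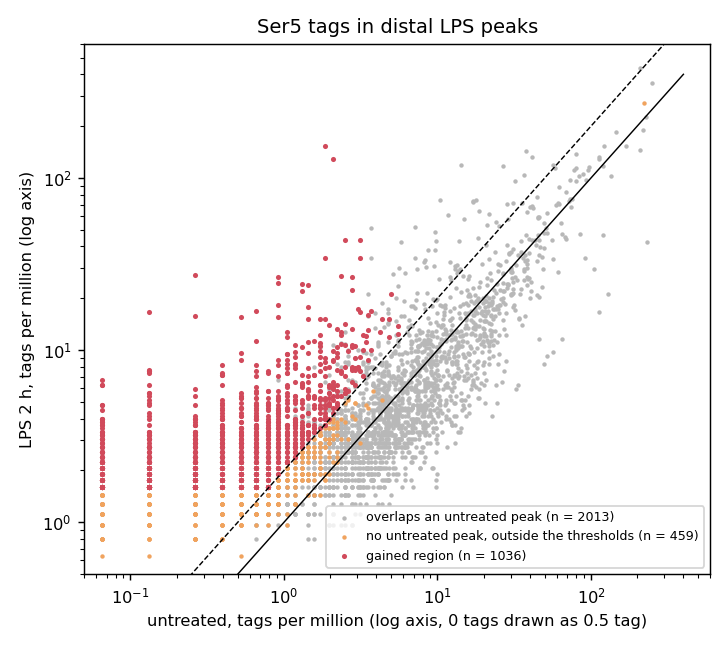
Ser5 TPM in each of the 3508 distal LPS peaks, untreated on the x axis and LPS 2 h on the y axis (both log axes, 0 untreated tags drawn as 0.5 tag); the solid line marks equal values and the dashed line a ratio of 2. The 1036 gained regions lie above the dashed line by the rule that chose them, and most sit at low values, where tags come in visible whole steps.

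Untreated tags, which the rule used, are given beside the input as a description. Over all regions their sum was 1.51 times that of the input (1.45 to 1.57), with more untreated than input TPM in 643 regions and no more in 393. Ratios to input depend on the scaling, since 50.2% of untreated and 95.5% of input tags lay outside peaks. Scaled to the tags outside peaks, a choice made after seeing the data, the ratio was 2.87 (2.76 to 2.99) and 832 regions had more untreated Ser5 than input. The flanking bases within 5 kb and outside all peaks of either library gave 0.362 TPM per kb in untreated cells and 0.745 in the input. That is a ratio of 0.487, beside 0.526 over all bases outside peaks (0.194 and 0.368 TPM per kb).

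The flanks also held more Ser5 after LPS. Outside all peaks, the bases within 5 kb of a gained region had 0.676 TPM per kb after LPS, 1.87 times the untreated value (1.83 to 1.90). Over all bases of the genome outside peaks, the same ratio was 0.929. Beside distal peaks present in both libraries (1903 LPS peaks in the same places, with at least 10 LPS tags and an overlapping untreated peak), it was 0.967 (0.954 to 0.980). Beside the 1677 distal peaks lost after LPS, which were taken from the untreated list by the mirrored rule, it was 0.624 (0.614 to 0.633). Whether weak peaks that were not called add to these flanks was not tested.

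**Figure D2:**
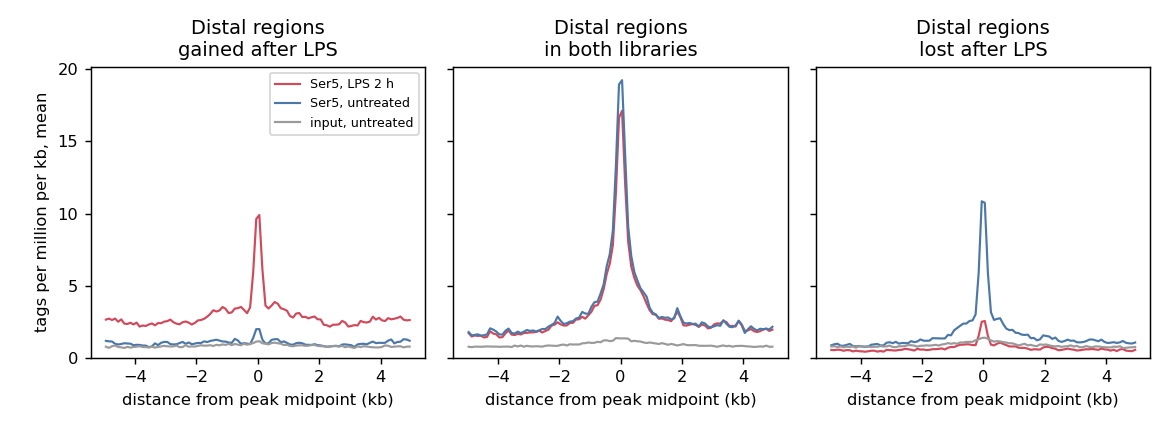
Mean Ser5 and input TPM per kb in bins of 100 bp against the distance from the peak midpoint, for 930 gained, 1677 common and 1510 lost distal regions more than 5 kb from any coding start. At the gained regions the LPS line peaks at 9.76 at the centre and stays near 2.60 at 4 to 5 kb, against 1.99 and 1.08 untreated and 1.13 and 0.765 in the input. Tags of neighbouring peaks are included. Outside all peaks, the bases within 5 kb of a gained region had 0.676 after LPS and 0.745 in the input. Over all bases outside peaks these values were 0.180 and 0.368.

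Tags on opposite strands were offset from each other. Within 300 bp of the pile-up centre, the median minus-strand LPS tag lay 75 bp to the right of the median plus-strand tag, and the offset was 67.0 bp around the peak midpoint. Untreated tags at the same centres were offset by 58.0 bp and input tags by 22.0 bp. The centre was placed with the LPS tags, so only the untreated and input values are free of that choice. Of the 28459 LPS tags in the regions, 82.0% had a position and strand of their own, and the share was 89.0% for untreated and 83.0% for input tags.

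Regions were grouped where they lay within 10 kb of each other, which gave 613 loci. A single region made up 453 loci, 138 loci had 2 to 4 regions, and 22 loci had 5 or more and held 235 regions. The 8 loci with the most LPS tags held 26% of all LPS tags in gained regions. By chromosome, densities ran from 0.150 regions per Mb on X to 0.747 on chromosome 11, where 91 regions lay in 50 loci, and chromosomes 16 and 8 followed with 0.732 and 0.630. On chromosome 8, 54 of the 83 regions lay in 1 locus.

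That locus, chr8:96954741-97051392, had the most LPS tags, with 408 untreated, 1505 LPS and 226 input tags in 54 regions (ratio 4.50, 4.03 to 5.03). It was a long chain of weak regions, since the largest held 95 LPS tags and the median 20. The nearest coding start, 5498 bp away, was that of Cpne2, whose gene body had 520 untreated and 367 LPS tags (ratio 0.860, 0.750 to 0.985). Of the 54 regions, 32 lay inside Nlrc5 (chr8:96996663-97051172), which encodes an activator of MHC class I genes. GENCODE M1 lists Nlrc5 as a lincRNA and RefSeq lists it as protein-coding, so the rule counted a gene body as intergenic there. Over the whole of Nlrc5 there were 583 untreated, 1674 LPS and 285 input tags (ratio 3.50, 3.18 to 3.85).

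The label "intergenic" was checked further against RefSeq names. Apart from Nlrc5, 3 regions lay in Ankrd57, a pseudogene in GENCODE M1 whose name is an older symbol of RefSeq's coding gene Sowahc, and 2 in Gm5544. Another 15 regions were within 2 kb of a coding start that RefSeq gives and GENCODE M1 does not, located by an exact match of the RefSeq promoter (GRCm38.p6) to mm9. In all, 52 of the 1036 regions (5.02%) had such a coding annotation and 984 did not. RefSeq gene bodies could not be placed on mm9, so regions inside other RefSeq genes were not looked for.

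A second chain, chr15:66950775-67004162, ran upstream of St3gal1 as GENCODE M1 places it. St3gal1 encodes a sialyltransferase of O-linked glycans. Its 37 regions covered 56.2% of 53388 bp and held 516 untreated, 1472 LPS and 226 input tags (ratio 3.48, 3.14 to 3.85). Untreated Ser5 was already above the input here, with a ratio of 2.26 (1.93 to 2.65), and GENCODE M1 lists no gene of any type in the span. RefSeq gene bodies were not placed on mm9, so whether a longer RefSeq body of St3gal1 covers this chain was not looked for. The GENCODE M1 body of St3gal1 had 197 untreated and 480 LPS tags (ratio 2.97, 2.51 to 3.52).

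The region with the most LPS tags was 1553 bp long. Upstream of Ube2l6, which encodes the E2 enzyme that attaches the interferon-induced modifier ISG15, the region chr2:84634283-84635835 had 14 untreated, 954 LPS and 3 input tags (ratio 83.0, 49.3 to 152). A second region 450 bp long beside it, chr2:84635903-84636352, held 2 untreated, 170 LPS and 1 input tag (ratio 104, 28.2 to 862). Few untreated tags were found in either region, and the body of Ube2l6, whose start lay 3150 bp from the first region, had 295 untreated and 1030 LPS tags (ratio 4.26, 3.73 to 4.86). With each position and strand counted once, the ratio of the locus was 55.2 in place of 81.3.

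A comparably strong region on chromosome 16, chr16:84702964-84706439, had 16 untreated, 805 LPS and 17 input tags (ratio 61.3, 37.5 to 108). The nearest coding start was that of the mitochondrial ribosomal protein gene Mrpl39, 29036 bp away. Closer to it, 7946 bp beyond the region's right edge, lay Mir155 (chr16:84714385-84714449), a microRNA gene known to be induced by LPS in macrophages. Those coordinates are of the hairpin. The start of the transcript that carries the hairpin was not placed here, so whether the region is its promoter was not tested. The mature product of Mir155, printed from RefSeq with the seed (bases 2 to 8) in capitals, is the following.
mmu-miR-155-5p: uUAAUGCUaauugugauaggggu

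MicroRNA genes were looked at after the values were seen. Of 1576 annotated in GENCODE M1, 31 lay within 20 kb of a gained region. Mir155 led this list by LPS tags in nearby regions, with 849. Next were 3 entries without a Mir name, with 68 or 95 LPS tags. Mir29a and Mir29b-1 followed with 30 untreated and 56 LPS tags in 3 shared regions, then Mir221 and Mir222 with 11 and 55 tags in 2 shared regions. The cluster from Mir17 to Mir92-1 had 20 and 41 tags in 3 shared regions, and Mir146 (miR-146a), an LPS-induced inhibitor of TLR signalling, had 1 region with 3 untreated and 14 LPS tags. A microRNA gene within 20 kb was found for 3.19% of gained regions, 5.99% of the common ones and 4.05% of the lost ones.

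**Figure D3:**
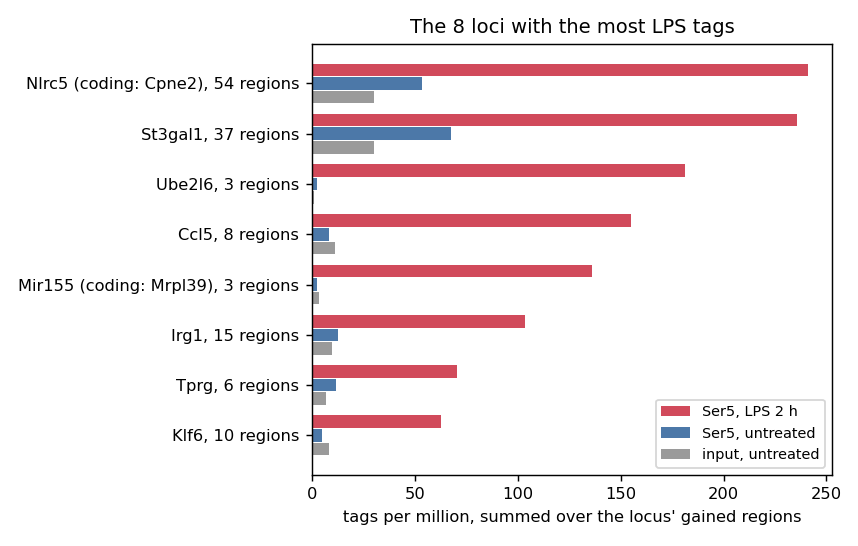
TPM summed over the gained regions of each of the 8 loci with the most LPS tags, for Ser5 after LPS, untreated Ser5 and untreated input (bars, 1 library each, no error shown). The Nlrc5 and St3gal1 chains show visible untreated Ser5, while the Ube2l6 and Mir155 loci, with 17 and 20 untreated tags, have untreated bars close to 0.

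The remaining loci of the 8 lay near coding genes of the LPS response, with 1 exception. The 8 regions of the Ccl5 locus (chr11:83347544-83364845, 3524 bp upstream of this chemokine gene) held 62 untreated, 968 LPS and 84 input tags (ratio 19, 14.7 to 25). Untreated Ser5 there was 0.730 times the input (0.517 to 1.03) scaled to all tags and 1.39 times (0.983 to 1.95) scaled to tags outside peaks. The body of Ccl5 had 24 untreated and 7801 LPS tags. Upstream of Irg1, which encodes the enzyme that makes itaconate, 15 regions (chr14:103411094-103442621) held 95 untreated, 647 LPS and 72 input tags (ratio 8.30, 6.68 to 10.4). Over the whole span of that locus, where the regions hold 38.8% of the LPS tags, there were 401 untreated and 1668 LPS tags (ratio 5.07, 4.54 to 5.67).

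At a distance of 70801 bp or more upstream of Klf6, a zinc-finger transcription factor, 10 regions (chr13:5773334-5789934) held 37 untreated, 392 LPS and 62 input tags (ratio 12.9, 9.20 to 18.6). The exception was the locus chr16:25012166-25027443, with 89 untreated, 440 LPS and 51 input tags (ratio 6.03, 4.79 to 7.65). Its whole span had 165 untreated and 552 LPS tags (ratio 4.08, 3.42 to 4.88). Its nearest coding gene, Tprg, started 259460 bp away and had 115 untreated and 93 LPS tags (ratio 0.986, 0.742 to 1.31).

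Among regions with at least 50 LPS tags, the largest ratio belonged to chr1:132938873-132939562 near Il10, the gene of an anti-inflammatory cytokine. It held 1 untreated, 104 LPS and 8 input tags (ratio 127, with a counting interval of 22.3 to 5054). With 3 untreated tags assumed, its ratio was 42.2, below those of the regions near Ube2l6 (83.0 and 69.1) and Mir155 (61.3). Its neighbour chr1:132937140-132938844 had 7 untreated, 153 LPS and 19 input tags (ratio 26.6, 12.6 to 67.4). A region 74260 bp upstream of Klf6 had 2 untreated, 98 LPS and 15 input tags (ratio 59.7, 16.1 to 500), and a region near Pgs1 had 4, 97 and 13 tags (ratio 29.6, 11.2 to 111). Within the Ccl5 locus, chr11:83349014-83350573 had 7 untreated, 166 LPS and 10 input tags (ratio 28.9, 13.7 to 73.0). The intervals of these ratios overlap widely, so their order is not resolved at this depth.

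Gained regions lay at a median of 31440 bp from the nearest coding start (28122 to 33699, an order-statistic interval). The median was 22693 bp (21066 to 23881) for distal regions in both libraries and 26793 bp (24666 to 29386) for lost ones. The interval of the gained regions was clear of that of the common regions and overlapped that of the lost ones. These intervals treat regions as independent and do not allow for regions that share a locus, as 91 gained regions in 2 loci did. A nearest start within 20 kb was found for 35.5% of gained regions, and 15.9% were beyond 100 kb. The region was upstream of the start of its nearest coding gene in 72.6% of gained, 75.9% of common and 74.5% of lost regions, a side that the rule itself favours by leaving out gene bodies and the 10 kb past their ends.

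Ser5 over the coding genes nearest to the gained regions was compared next. The same pair of libraries gave the regions and these gene values, so they are set beside the background with no test. Of 17386 coding genes whose bodies held 10 tags or more in the Ser5 libraries together, 5.82% were 2-fold or more higher after LPS and 11.2% were 2-fold or more lower, and the median ratio was 0.873. The 1036 regions had 504 different nearest genes, of which 463 had enough tags, and 157 of them (33.9%, 29.7 to 38.3) were at least 2 times higher while 27 (5.83%) were at least 2 times lower. Their median ratio was 1.44. Genes nearest to common regions were higher in 12.1% (10.3 to 14.3), and those nearest to lost regions in 3.47% (2.48 to 4.83).

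By distance, the share was 40.6% (34.5 to 47.1) for the nearest genes of gained regions within 20 kb of the start. It was 33.2% (27.3 to 39.6) at 20 to 100 kb and 30.9% (21.2 to 42.6) beyond, with overlapping intervals. These classes are not separate, since a gene nearest to several regions can stand in more than one of them. Seen from the genes, 281 of the 1011 coding genes at least 2 times higher (27.8%, 25.1 to 30.6) had a gained region within 100 kb of a start, against 6.6% of genes that changed less and 5.06% of genes at least 2 times lower. Of the 45 genes at least 10 times higher, 28 had one. Over all 22350 coding genes the share was 6.54%. A majority of the induced genes thus had no gained region of this kind nearby.

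**Figure D4:**
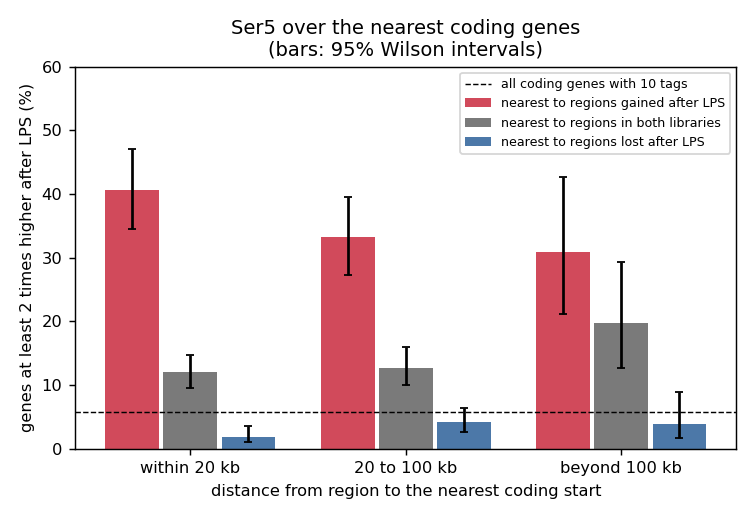
Share of nearest coding genes whose Ser5 over the gene body was at least 2 times higher after LPS, by distance and by kind of distal region (bars, with 95% Wilson intervals); the dashed line is the 5.82% of all coding genes with 10 tags. Bars of the gained regions stand at 30.9% to 40.6% and those of the lost regions at 1.89% to 4.17%.

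Genes of the LPS response were followed through fixed lists, which were chosen with earlier results of these data known. Over 7 lists, 54 of 129 annotated genes (41.9%, 33.7 to 50.5) had a gained region within 100 kb of a start, beside the 6.54% of all coding genes. The share was 20.2% within 20 kb, beside 1.5%. In the lists taken for comparison, 5 of 15 macrophage identity genes (33.3%) and 3 of 20 ribosomal protein genes (15.0%) had one within 100 kb. Together these were 8 of 35 genes (22.9%, 12.1 to 39.0), also above the 6.54%. That interval overlaps the one of the 7 lists. Neighbouring genes share regions, so these counts are not independent.

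Chemokines, which recruit leukocytes, had a region in 10 of 15 cases (66.7%, 41.7 to 84.8). Regions within 100 kb of Ccl9 held 92 untreated, 1067 LPS and 107 input tags and those around Ccl5 67, 978 and 87, and these are largely the same regions, since the genes are neighbours. Ccl2, Ccl7 and Ccl12 shared 4 regions with 21 untreated and 134 LPS tags. All 15 chemokine genes had at least 2 times more Ser5 after LPS over their bodies. Ratios were low at Cxcl16 (2.05, 1.78 to 2.36), Ccl2 (2.24, 2.11 to 2.38) and Ccl17, whose 9 untreated and 17 LPS tags leave an interval that includes no change (2.30, 0.971 to 5.86).

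Of 19 cytokine genes, 10 had a region (52.6%, 31.7 to 72.7). Within 100 kb of Il10, 6 regions held 53 untreated, 474 LPS and 69 input tags, and the gene body itself had only 30 and 78 tags (ratio 3.17, 2.06 to 5.00). Around Il27, which encodes a subunit of interleukin 27, 8 regions held 52 untreated, 288 LPS and 63 input tags, beside 109 and 666 tags over the gene. These are counts and not levels per length, and the regions around Il10 held more LPS tags than its body, unlike those around Il27.

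Among effector genes 8 of 13 had one (61.5%, 35.5 to 82.3). The regions within 100 kb of Irg1 held 109 untreated and 742 LPS tags, beside 2146 and 35958 over its body, the highest count of any listed gene. Marco, a scavenger receptor, had 3 regions with 13 untreated, 92 LPS and 6 input tags. At Ptgs2, which encodes the inducible cyclooxygenase, a single region 64617 bp away (chr1:152011871-152012488) held 21 untreated, 67 LPS and 14 input tags (ratio 3.89, 2.35 to 6.69). That region covers the RefSeq start of Ptgs2os2, a long non-coding RNA also known as lincRNA-Cox2, and it was picked out after its values were seen.

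Interferon response genes had a region in 12 of 25 cases, although 24 of the 25 genes were at least 2 times higher. Gbp3 and Gbp5, guanylate-binding proteins that act against intracellular microbes, shared 2 regions with 9 untreated, 73 LPS and 6 input tags. Rsad2 and Cmpk2 shared 2 with 8 untreated and 44 LPS tags. For the whole list there were 244 LPS tags in 10 regions, against 1412 in 23 for the chemokines.

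The remaining lists were lower, with intervals that reach into those above. Among NF-kB subunits and regulators 5 of 18 genes had a region, led by the ubiquitin-editing inhibitor Tnfaip3 (29 untreated, 82 LPS and 17 input tags in 5 regions). Next came Nfkbia, the inhibitor IkBa, with 12, 61 and 8 tags in 4 regions. Signalling feedback had 4 of 15, with 8 regions around the cytokine-signalling inhibitor Socs3 (55 untreated, 440 LPS and 51 input tags) and 4 around the kinase gene Pim1 (39, 150 and 24).

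Transcription factors had 5 of 24 (20.8%, 9.24 to 40.5), with 16 regions around Klf6 (49 untreated, 497 LPS and 73 input tags) and 2 around Atf3 (24, 69 and 13). Only 6 genes of this list were at least 2 times higher after LPS over the gene body. In the comparison lists, the LPS co-receptor gene Cd14 had 2 regions (7 untreated, 56 LPS and 12 input tags) and was itself 3.18 times higher. Fcgr3 had 1 region with 4 untreated and 19 LPS tags although its body was lower (ratio 0.329, 0.253 to 0.425). Rpl4 and Rps18 had 3 regions each, with 38 and 26 untreated and 110 and 99 LPS tags, and their bodies had ratios of 0.956 and 1.00.

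Annotated non-coding genes overlapped few of the regions. In GENCODE M1, 120 of 1036 regions (11.6%) overlapped a gene of any type, 77 of them a lincRNA, 31 a processed transcript and 12 a pseudogene. The share was 13.9% for common and 8.17% for lost regions. Of the 77 regions in a lincRNA, 32 lay in Nlrc5. Without the regions in that gene, 88 of 1004 overlapped a gene of any type and 45 a lincRNA. The share of any gene was then 8.76% (7.17 to 10.7), an interval that takes in the share of the lost regions. A start of a non-coding transcript lay within 2 kb of 45 gained regions (4.34%), against 13.1% of common and 6.62% of lost ones.

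By exact matches of RefSeq promoters, 60 regions (5.79%) were within 2 kb of the start of 1 of 49 long non-coding RNAs. This share was not taken for common or lost regions, so it has no background here. The strongest of these were Gm34643, in the Irg1 locus, with 29 untreated and 279 LPS tags in 3 regions, and 2500002B13Rik, near the chromatin protein gene Hmgb2, with 18 and 263 tags in 2 regions. Most gained regions thus lay at no start listed in GENCODE M1 or found by an exact RefSeq match. RefSeq promoters with no exact match in mm9 could not be looked for.

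Windows of 300 bases were compared for sequence, a measure that the rule did not use. Neighbouring regions of a locus are not independent, and the intervals do not allow for that. Gained windows had a median of 46.3% G and C, against 51.7% for common and 50.3% for lost windows, and a mean of 3.68 CpG, against 8.92 and 5.51. A kappaB match, the NF-kB site, was present in 8.69% of gained windows (7.12 to 10.6), 6.20% of common (5.20 to 7.38), 3.04% of lost (2.32 to 3.98) and 6.87% of all distal LPS windows. ISRE, the element of IRF and ISGF3 factors, was present in 11.1% (9.33 to 13.2), 6.57% (5.54 to 7.77), 4.0% (3.16 to 5.04) and 8.18% in the same order.

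PU.1 matches went the other way. They were present in 6.85% of gained (5.47 to 8.56), 8.30% of common (7.15 to 9.63), 13.2% of lost (11.6 to 14.9) and 7.70% of all distal LPS windows. AP-1 matches were present in 16.6% of gained (14.5 to 19), 17.0% of common, 19.8% of lost (18 to 21.8) and 16.9% of all windows, with overlapping intervals. C/EBP had 16.6%, 14.1%, 13.4% and 15.1%, STAT 11.3% (9.51 to 13.4), 9.62% (8.37 to 11), 7.75% (6.57 to 9.13) and 10.2%, and the E-box 4.15%, 5.99%, 6.32% and 4.99%. For kappaB, ISRE, PU.1 and STAT the intervals of gained and lost windows did not overlap, and only for ISRE were gained and common windows apart as well.

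**Figure D5:**
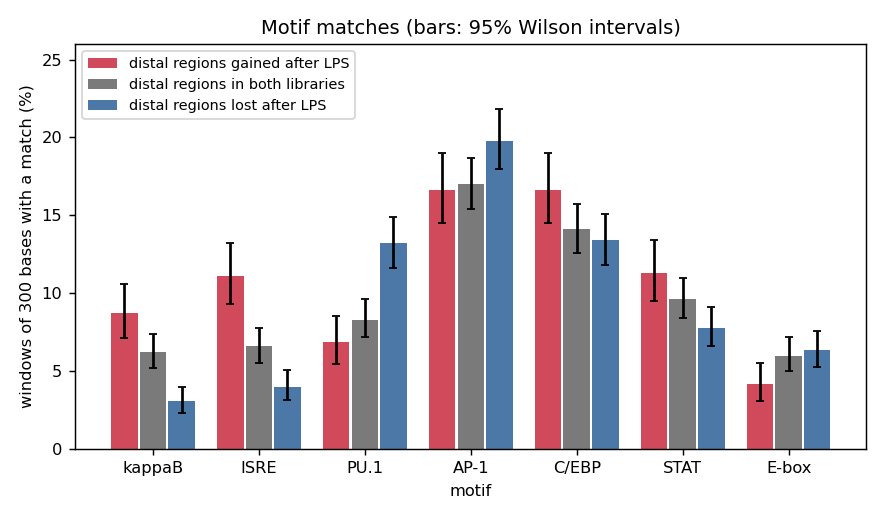
Share of 300-base windows with at least 1 match to each motif on either strand, for 1036 gained, 1903 common and 1677 lost distal regions (bars, with 95% Wilson intervals). The kappaB and ISRE bars descend from gained to lost regions, from 8.69% to 3.04% and from 11.1% to 4.0%, and the PU.1 bars rise from 6.85% to 13.2%.

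Base composition differed between these sets, so the shares were also taken in windows with 45% to 50% G and C, a band chosen after seeing the data. There, kappaB was present in 8.01% of 362 gained windows (5.64 to 11.3) and 1.62% of 554 lost ones (0.857 to 3.06). ISRE had 10.5% (7.74 to 14.1) and 4.51% (3.08 to 6.58), and PU.1 5.52% (3.60 to 8.38) and 16.2% (13.4 to 19.5). In this band the ISRE intervals of gained and common windows (8.28%, 6.12 to 11.1) overlapped, as did those of STAT in gained (11.0%, 8.22 to 14.7) and lost windows (7.76%, 5.81 to 10.3).

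The shares were also taken in 4 groups of 259 regions ranked by ratio, the value that the rule used. The highest group holds the 91 regions with 0 untreated tags. The motif kappaB was present in 3.47% (1.84 to 6.47) of the lowest, with ratios of 2.00 to 3.12, and in 10.8% (7.59 to 15.2), 11.6% (8.24 to 16.1) and 8.88% (5.99 to 13.0) of the following groups. For kappaB, the interval of the lowest group lay below those of the middle groups and overlapped that of the highest. The intervals of the lowest and highest groups also overlapped for PU.1, with 8.11% (5.36 to 12.1) and 3.86% (2.11 to 6.96). ISRE stayed between 10.0% and 13.1%, and AP-1 between 15.8% and 17.4%. Both kappaB and ISRE were found together in 6 windows, and 645 windows (62.3%) held none of kappaB, ISRE, PU.1 and AP-1.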

How the data were processed

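Ser5 ChIP-Seq tags and peaks of untreated and LPS-treated macrophages and input tags were used, with groups taken from the sample labels. The authors trimmed the reads, ran Bowtie against mm9 for single-place alignments with up to 2 mismatches, and called peaks per library against input with MACS at a p-value of 1e-05. The deposited tags are 45 bases long in the untreated, 30 in the LPS and 36 in the input library, so the places where a tag aligns once can differ between libraries. The study's methods give the lengths of both Ser5 libraries the other way round, and the files were used as deposited. Tool versions are not given in the sources used here. The deposited peak score is 10 times the negative log10 of the MACS p-value. The deposited tag files give coordinates and strand, and a text file of column descriptions held no data. Tags were counted here by their 5′ end, with duplicates kept, and scaled to all tags on chromosomes 1 to 19 and X. The 7 motif searches read both strands of mm9, and overlapping matches counted for each motif. Intervals are exact (ratios), Wilson (shares) or order-statistic (medians), at 95%, and a count of 0 allows 3 tags. Functions were tested on simulated data (Python 3.11.15, numpy 2.4.6, pandas 2.3.3, scipy 1.17.1, matplotlib 3.10.9). The regions, lists and rules were chosen with earlier results of these data known. Named were the 8 loci with the most LPS tags, the 8 regions with the largest ratio among those with at least 50 LPS tags (several in those loci), the 2 genes per list with the most LPS tags nearby, regions at each threshold and the printed windows. Cxcl11 has no coding entry of that name in GENCODE M1 and was left out of the chemokines. Alternatives covered tag counting, scaling, peak score, distances, annotation and window.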

Additional observations from a re-analysis of the deposited data

How the results depend on the processing

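With 1 library per condition, no result has a replicate error, and weak regions near 10 tags are the least certain. No paired analysis was possible because each group has 1 library and the values come from no test. The number of gained regions was 430 with a peak score of at least 100 and 453 with at least 20 LPS tags, against 1036, and stayed between 809 and 1081 under 8 other settings, 1 of them, the removal of both longest chains (945), chosen after seeing the data. Counting each position and strand once gave 905 regions, 886 of them among the 1036. The median ratio of LPS to input, 7.83, became 16.0 when scaled to tags outside peaks, where the input has a larger share of its tags. The median distance to a start was 17343 bp with the starts of all genes in place of coding ones. The share of nearest genes at least 2 times higher was 40.6% within 20 kb and otherwise 32.4% to 36.3%. The share of listed genes with a region fell from 41.9% to 20.2% within 20 kb. In windows of 200 bp, whole peaks and, for kappaB, peaks with a score of at least 100, kappaB was at 6.08%, 11.5% and 10.9%. ISRE was at 8.11% and 13.3%, PU.1 at 5.31% and 8.69%, and AP-1 at 12.5% and 23.2% in windows of 200 bp and whole peaks. Shorter or longer sequence holds fewer or more matches by construction. In whole peaks the common regions, which are longer, had 12.0% kappaB, above the 11.5% of the gained ones. Under the planned window and score settings kappaB and ISRE shares stayed above, and PU.1 shares below, those of the lost regions. The strand offset around the midpoint, also added later, was 67.0 bp. The ratios of the 8 named loci stayed within their intervals under the 3 tag settings. Over whole spans, added later, 4 of these ratios fell outside them, near Cpne2 (3.79), St3gal1 (3.13), Irg1 (5.07) and Tprg (4.08). Scaling to tags outside peaks turned untreated Ser5 at the Ccl5 locus from 0.730 to 1.39 times the input.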
